A study of Homo sapiens with 6 samples.

Results

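The 46 genes described here copy the genome or open the way into S phase, and all 46 were found by symbol among the 42307 genes counted in U251 cells. They were taken as a fixed list of names and sorted by role into 9 genes of origin licensing, 12 of the replicative helicase, 14 of the polymerases, primase, clamp and clamp loader, 5 of strand binding and joining, 3 of nucleotide supply and 3 of G1/S control. U251 is an established human glioblastoma cell line, labelled wild type. Cells of this line were transfected with 1 ug per well of either a negative control plasmid or a STING overexpression plasmid, STING being the adaptor through which cytosolic DNA is sensed, and were collected on day 3. Each arm had 3 RNA-seq libraries, and their labels give no other allele or agent. The promoter and vector of the plasmids, the share of cells that took them up, and whether the replicates were separate cultures are not recorded in the labels, so p-values measure only the spread between these libraries, which may be technical.

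Before a cell copies its DNA, the origin recognition complex (ORC) marks origins, and CDC6 and CDT1 load the MCM2 to MCM7 ring there, a step that geminin restrains by binding CDT1. At the start of S phase CDC45 and the GINS proteins join the ring and turn it into the active helicase, after which polymerase alpha with primase starts each strand and polymerases delta and epsilon extend it on the PCNA clamp. Many of these genes are transcribed in late G1 under E2F factors, so their transcripts usually follow how many cells of a culture are entering S phase. In RNA from a whole culture, a different share of cells in S phase and a different amount of RNA per cell cannot be told apart.

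Since E2F factors act at promoters, the windows from 180 bases before to 20 bases after the annotated start are shown for the pair of members that passed the test (ORC5 and SLBP) and for 1 member each of licensing, helicase, clamp and G1/S control. Each of the latter holds a match, which many other members do not, so they do not stand for their classes. Sequences are from RefSeq, build GRCh38.p14, 5′ to 3′ along the gene's strand, and capitals mark E2F-type motifs found by a letter search.
ORC5 (chr7:104207994-104208193, minus strand): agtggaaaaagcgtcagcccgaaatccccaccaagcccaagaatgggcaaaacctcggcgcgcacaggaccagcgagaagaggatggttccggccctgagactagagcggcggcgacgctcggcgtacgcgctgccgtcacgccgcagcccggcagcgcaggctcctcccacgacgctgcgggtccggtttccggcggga
SLBP (chr4:1712300-1712499, minus strand): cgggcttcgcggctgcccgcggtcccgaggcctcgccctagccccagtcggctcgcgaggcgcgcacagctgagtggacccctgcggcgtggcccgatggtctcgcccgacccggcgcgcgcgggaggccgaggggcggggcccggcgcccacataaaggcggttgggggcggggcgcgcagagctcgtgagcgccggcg
CDC6 (chr17:40287699-40287898, plus strand): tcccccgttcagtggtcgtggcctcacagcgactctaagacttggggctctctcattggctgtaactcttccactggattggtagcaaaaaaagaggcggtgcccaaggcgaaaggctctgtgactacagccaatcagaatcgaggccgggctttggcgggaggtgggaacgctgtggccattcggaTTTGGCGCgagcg
MCM6 (chr2:135876424-135876623, minus strand): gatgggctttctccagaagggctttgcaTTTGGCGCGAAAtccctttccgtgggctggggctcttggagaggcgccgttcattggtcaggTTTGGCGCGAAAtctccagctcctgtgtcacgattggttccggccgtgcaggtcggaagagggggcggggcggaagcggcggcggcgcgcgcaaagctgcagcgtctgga
PCNA (chr20:5126603-5126802, minus strand): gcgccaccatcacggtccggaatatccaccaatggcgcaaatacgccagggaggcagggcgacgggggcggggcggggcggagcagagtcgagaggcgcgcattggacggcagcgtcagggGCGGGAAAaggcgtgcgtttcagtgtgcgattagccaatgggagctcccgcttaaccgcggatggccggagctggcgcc
E2F1 (chr20:33686366-33686565, minus strand): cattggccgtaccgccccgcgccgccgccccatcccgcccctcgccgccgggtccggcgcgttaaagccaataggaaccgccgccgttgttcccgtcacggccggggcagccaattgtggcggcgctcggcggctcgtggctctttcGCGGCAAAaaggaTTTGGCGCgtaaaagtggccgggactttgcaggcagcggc
The motifs searched were TTTGGCGC, TTTCCCGC, TTTCGCGC and TTTGCCGC on both strands, and matches may overlap, as do those of MCM6 within TTTGGCGCGAAA. Over the full window of 250 bases before to 50 after the start, 20 of the 39 members with a RefSeq entry held a match, or 51.3%. Of all 27305 genes with an entry 3.99% held one, as did 3.31% of all 35116 windows and 9.68% of the 31 windowed genes of a G2/M list. By role, the matches were in 7 of 9 helicase, 6 of 13 polymerase, 4 of 9 licensing, 1 of 3 strand, 1 of 3 nucleotide and 1 of 2 G1/S control genes. The windows of the members were also richer in G and C, with a median of 65.7% against 58.7% over all windows. CDC6 held its match at bases 8 to 15 after the start, and MCM6 held its sites at -152 to -141 and -90 to -79. ORC5 and SLBP, printed above, held no match in any window. MCM4, MCM5, GINS4, POLD3, RPA2, RPA3 and CCNE2 had no entry. A match is a string of letters and not a measured binding site.

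Library totals ran from 71498790 to 76566375 counts. STING1, the gene on the plasmid, was counted 2660, 2628 and 2360 times in control libraries 1 to 3 and 4327, 4226 and 3596 times in STING libraries 1 to 3, so each STING library lay above each control library. Of 18 glial and glioma markers 17 were listed, and their summed level was 4428 to 4603 CPM (counts scaled to the size of the library) in the control and 4177 to 4323 CPM in the STING libraries. VIM and CD44 made up most of it, while S100B, OLIG2, NCAN, SLC1A2 and CHI3L1 had at most 44 counts in a library. Immune markers summed to at most 37.7 CPM, endothelial to 24.2, epithelial to 6.86 and neuronal to 55.2. Haemoglobin transcripts split the libraries across the groups. HBB, the beta chain, was counted 16, 30429 and 30209 times in control libraries 1, 2 and 3 and 9, 2497 and 4940 times in STING libraries 1, 2 and 3, and HBA1, HBA2 and HBB together reached 0.0701% of a library's counts. Results that rest on all 6 libraries are therefore given below also from libraries 2 and 3 of each group alone, where that changes a call.

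Across the 46 genes the STING plasmid went with small differences. ORC5, a subunit of the origin recognition complex, and SLBP, the protein that binds the stem-loop of histone messages, rose, and 0 members fell. The call was a Benjamini-Hochberg adjusted p under 0.05 in the quasi-likelihood test of edgeR, taken over all 21679 genes that passed the filter on low counts, which all 46 members did. Over all tested genes that test called 0.604% higher and 0.89% lower, 1.49% in all. At an unadjusted p under 0.05 it gave 11 members higher and 0 lower, beside 7.17% higher and 7.2% lower of all genes. With DESeq2, 7 members were higher and 0 lower, against 1.94% and 2.82% of all genes. With limma-voom, 2 were higher and 0 lower, against 0.558% and 0.89%, and in edgeR corrected for GC content and length 3 were higher and 0 lower, against 0.899% and 1.4%. The 7 members were ORC5, ORC6, CDC6, GINS3, RPA2, RRM2 and SLBP. In libraries 2 and 3 of each group alone edgeR called 0 members and 0.968% of all genes, with 15 members higher and 3 lower at an unadjusted p under 0.05, beside 7.75% and 8.56% of all genes. With the presence of haemoglobin transcripts as a term it called 1 member, ORC5, and 1.17% of all genes. Leaving out control library 1, 2 or 3 or STING library 2 or 3 gave 0 calls among the members and 0.266% to 0.723% over all genes. In those fits 7 to 12 members were higher and 0 lower at an unadjusted p under 0.05, beside 5.17% to 5.92% and 5.05% to 6.5% of all genes. Leaving out STING library 1 gave 4 calls (ORC5, CDC6, RRM2 and SLBP), and that fit called 3.27% of all genes. There 13 members were higher and 5 lower at an unadjusted p under 0.05, beside 8.26% and 9.34% of all genes.

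The fitted log2 fold changes, STING over control, ran from -0.08 to 0.30 with a median of 0.04, beside a median of 0.00 over all tested genes. Of the 46 estimates 33 were above 0, where 50.2% of all genes were. The count of positive estimates was 38 with library totals in place of TMM factors, 29 with upper-quartile factors and 27 once GC content and length were corrected for. The median over all genes moved as well, to 0.031, -0.0088 and -0.0024 in these fits. Library totals also turned the calls over all genes from 131 higher and 193 lower to 246 higher and 138 lower. In 13 members all STING libraries lay above all control libraries, and in 1, LIG1, they all lay below, while 10.1% and 9.73% of all genes were placed so. For 43 members the 95% interval of the change stayed within 1.25-fold in either direction, the exceptions being ORC5, GINS3 and CCNE2. That held for 40.9% of all tested genes and for 82.4% of the 10288 genes within the members' range of CPM.

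**Figure D1:**
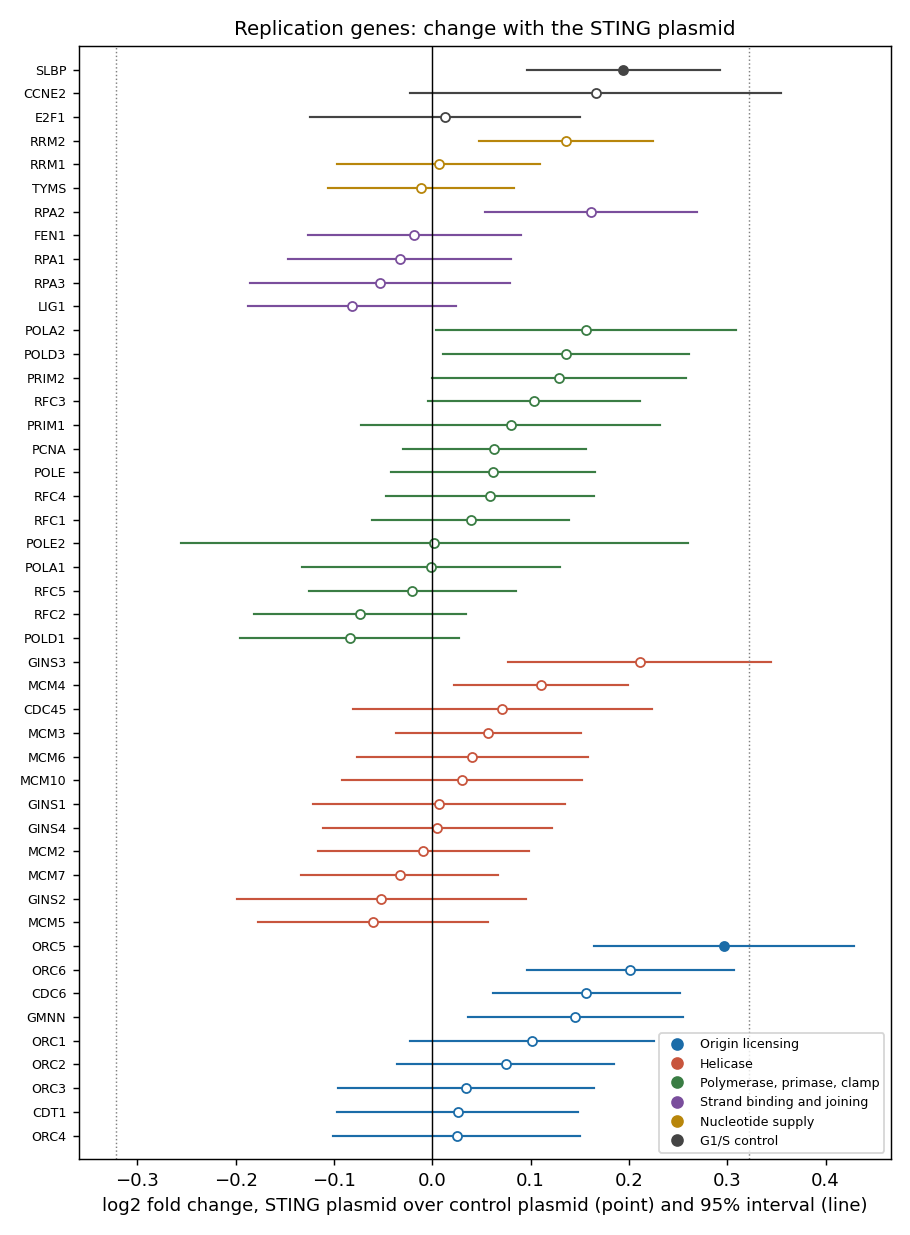
Log2 fold change of each of the 46 genes, STING plasmid over control plasmid (point), with its 95% interval (line), coloured by role; n = 3 libraries per group. Filled points are ORC5 and SLBP, the members with an adjusted p under 0.05, and dotted lines mark a change of 1.25-fold in either direction.

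Origin licensing genes lay slightly above the controls, with a median log2 fold change of 0.10, and 1 of 9, ORC5, passed the test. All 9 estimates were positive under each scaling, but ORC3 and ORC4 turned negative in the fit corrected for GC content and length, and ORC4 and CDT1 in libraries 2 and 3 alone. In 5 of the 9 all STING libraries lay above all control libraries, as they did in 10.1% of all genes. ORC5 (ENSG00000164815, minus strand of chromosome 7, 104126341 to 104208047) stood at 31.6, 28.7 and 30.4 CPM in control libraries 1, 2 and 3 and at 36.7, 38.6 and 36.0 CPM in STING libraries 1, 2 and 3. The groups did not overlap, and the gap between their nearest libraries was wider than the range within either group. ORC5 rose 1.23-fold, with a 95% interval of 1.12 to 1.35 (log2 fold change 0.30, SE 0.062, adjusted p = 0.0276 in edgeR's quasi-likelihood test). In replicate 1, where haemoglobin transcripts were near 0 in both groups, the log2 ratio of ORC5 was 0.22, and it was 0.34 over replicates 2 and 3, where the adjusted p was 0.0613. No other gene model overlapped ORC5, so its counts were shared with no neighbour.

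ORC6, the smallest ORC subunit, came next. Its level was 115.8, 117.9 and 123.6 CPM in the control and 141.3, 140.2 and 129.4 CPM in the STING libraries. Every STING library again lay above every control library, by a narrower margin in STING library 3. The log2 fold change of ORC6 was 0.20 (SE 0.050) and the adjusted p was 0.0556 in edgeR, with 0.00373 in DESeq2 and 0.047 in the fit corrected for GC content and length. CDC6, the ATPase that joins ORC to load the MCM ring, stood at 133.8, 131.0 and 135.0 CPM in the control and 143.9, 152.6 and 149.1 CPM in the STING libraries. Here too the groups were apart, with a log2 fold change of 0.16 (SE 0.045) and an adjusted p of 0.0996 in edgeR. GMNN, which encodes geminin, ran from 63.1 to 68.6 CPM in the control and from 70.2 to 74.8 CPM in the STING libraries (log2 fold change 0.15, adjusted p = 0.185). CDT1, the partner that geminin restrains, had overlapping groups and a log2 fold change of 0.03. The ratio of CDT1 to GMNN counts within a library was 0.724, 0.737 and 0.793 in the control and 0.722, 0.659 and 0.694 in the STING libraries. These groups missed each other by a margin smaller than the spread within either, and with 3 against 3 libraries an exact two-sided test cannot give a p below 0.1. ORC1, ORC2, ORC3 and ORC4, the remaining ORC subunits, had log2 fold changes of 0.02 to 0.10, and of these only ORC2 had groups that did not overlap.

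**Figure D2:**
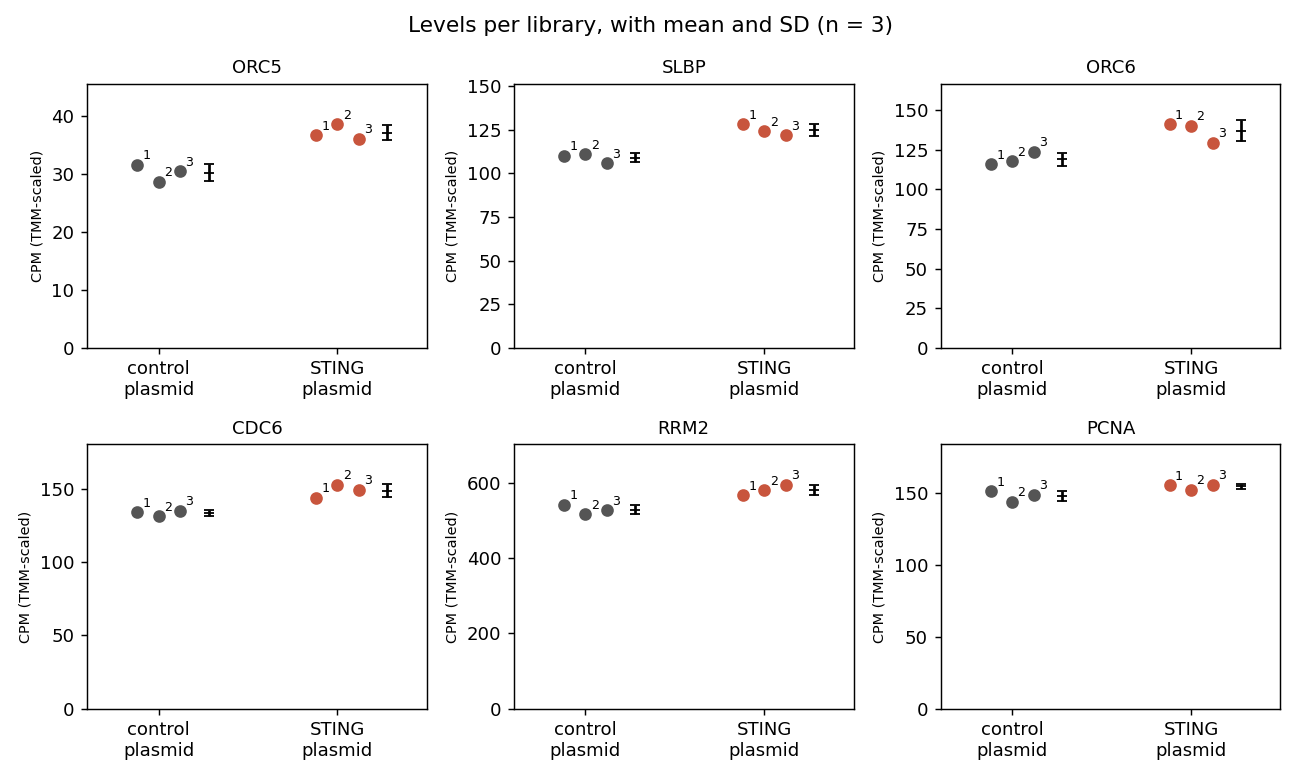
Level of 6 members in CPM (y axis, from 0) in each library, numbered by replicate, for the control plasmid (grey) and the STING plasmid (red), with the group mean and SD (n = 3). All STING libraries lie above all control libraries in each of the 6 genes, with the narrowest gap in PCNA (151.5 CPM in control library 1 and 152.7 CPM in STING library 2). The 6 are among the 13 of 46 members placed so, as were 10.1% of all genes, and do not stand for the whole list.

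The helicase genes had a median log2 fold change of 0.02, with class medians of 0.07, 0.04 and -0.03 over the control mean in STING libraries 1, 2 and 3, beside 0.11, 0.11 and 0.10 for licensing, and the difference between the classes was not tested. Of their estimates 8 of 12 were positive, and 0 passed the test in edgeR, with 2 at an unadjusted p under 0.05 and 1 called by DESeq2. GINS3, a subunit of the GINS complex, had the lowest p. It stood at 43.3, 43.7 and 43.9 CPM in the control and at 55.5, 48.6 and 47.4 CPM in the STING libraries. STING library 1 was set apart above the other two, which themselves were above all controls. The log2 fold change of GINS3 was 0.21 (SE 0.063, adjusted p = 0.113 in edgeR), with 0.36 in replicate 1 and 0.13 over replicates 2 and 3. The other GINS genes had log2 fold changes of -0.05 to 0.01. MCM4, a subunit of the ring, stood at 223.9, 216.2 and 221.4 CPM in the control and 237.2, 238.0 and 239.1 CPM in the STING libraries. Its groups did not overlap, and its log2 fold change was 0.11 (SE 0.042, adjusted p = 0.214). The ring's other subunits ran from -0.06 for MCM5 to 0.06 for MCM3, all with overlapping groups. CDC45 and MCM10, which act as the helicase is switched on, had log2 fold changes of 0.07 and 0.03.

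MCM2, MCM5 and MCM7 differed between STING libraries in the same way. MCM7 stood at 451.5 CPM in STING library 1 and at 407.3 and 409.3 CPM in STING libraries 2 and 3, with the control libraries at 422.5 to 439.0 CPM. MCM5 stood at 93.0 CPM in STING library 1, above all controls, and at 82.9 and 81.7 CPM in STING libraries 2 and 3, below all controls. These genes are rich in G and C, with 57.6% for MCM7 and 57.0% for MCM5 over the longest transcript, where the median member had 45.9%. Across the 46 genes, Spearman's correlation of the level in a STING library over the control mean with GC content was 0.23 in STING library 1, -0.55 in STING library 2 and -0.52 in STING library 3, a description over genes that share each library. Over all genes the trend with GC content was taken against the mean of all 6 libraries, on the log2 scale per 10% of GC. It likewise differed between these libraries, at 0.03, -0.07 and -0.04 in STING libraries 1, 2 and 3. In control libraries 1, 2 and 3 it was 0.01, 0.04 and 0.02. When each library's trend with GC content and length was removed, 3 members passed (ORC5, ORC6 and SLBP), and the class median of the polymerase genes was 0.02 in place of 0.06.

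**Figure D3:**
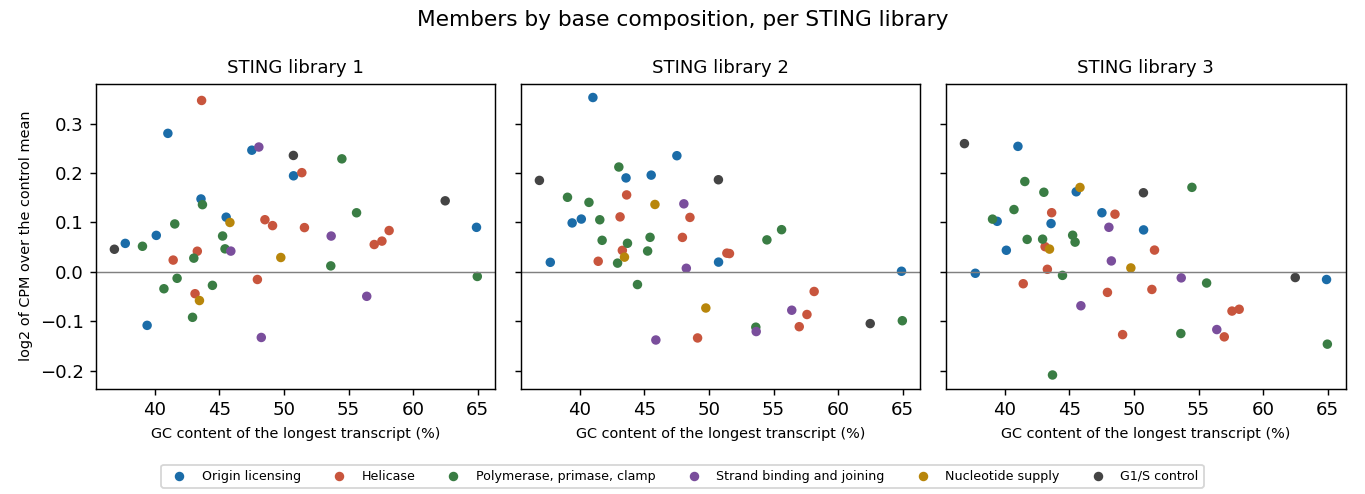
Level of each of the 46 genes in each STING library over its control mean (y axis, log2) against the GC content of its longest transcript (x axis, percent), coloured by role. The points fall with GC content in STING libraries 2 and 3, with Spearman correlations of -0.55 and -0.52, and do not in STING library 1, with 0.23.

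Among the 14 genes of polymerases, primase, clamp and clamp loader the median log2 fold change was 0.06 and 10 estimates were positive. In edgeR 0 of 14 passed, with 2 at an unadjusted p under 0.05, and 0 in DESeq2 or limma-voom. POLD3, an accessory subunit of polymerase delta, had levels of 54.0, 50.2 and 51.2 CPM in the control and 52.8, 60.0 and 57.9 CPM in the STING libraries. STING library 1 fell within the control range, and the log2 fold change was 0.14 (adjusted p = 0.299). POLA2, the second subunit of polymerase alpha, was at 55.5, 45.4 and 52.8 CPM in the control and 60.0, 53.6 and 57.7 CPM in the STING libraries. STING library 2 lay below control library 1, so the groups overlapped, and the log2 fold change was 0.16 (adjusted p = 0.331). Summed with the models that overlap it, POLA2 had a log2 fold change of 0.08. On its own, with 1 library left out at a time, it ran from 0.08 to 0.22. PRIM2, the large primase subunit, had groups that did not overlap and a log2 fold change of 0.13 (adjusted p = 0.348), as did the clamp loader subunit RFC3, with 0.10 (adjusted p = 0.371).

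PCNA, the clamp, is a common marker of proliferating cells. It stood at 151.5, 144.3 and 149.2 CPM in the control and at 156.0, 152.7 and 156.1 CPM in the STING libraries. The groups did not overlap, but their gap was smaller than the range among the controls. The fold change of PCNA was 1.04 with a 95% interval of 0.98 to 1.11 (adjusted p = 0.584). POLE2, a small subunit of polymerase epsilon, had the lowest level of all members and the widest interval, with 8.35, 8.95 and 10.2 CPM in the control and 10.1, 9.53 and 7.92 CPM in the STING libraries. The catalytic subunit of polymerase delta, POLD1, had the lowest estimate of the 46, with a log2 fold change of -0.08 (adjusted p = 0.524) and overlapping groups.

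Strand binding and joining genes had a median log2 fold change of -0.03, which lay nearest 0 with library totals and stayed below 0 under each scaling, and 4 of 5 estimates were negative. RPA2, the middle subunit of the single-strand binding protein RPA, was the exception, at 94.8, 92.7 and 95.3 CPM in the control and 112.3, 103.7 and 100.3 CPM in the STING libraries. Its groups did not overlap, and its log2 fold change was 0.16 (SE 0.051, adjusted p = 0.132 in edgeR and 0.0404 in DESeq2). Its partner subunits RPA1 and RPA3 had log2 fold changes of -0.03 and -0.05. LIG1, the ligase that seals Okazaki fragments, stood at 78.6, 73.6 and 73.3 CPM in the control and 72.6, 71.2 and 69.3 CPM in the STING libraries, all below the controls by a gap smaller than the range within either group (log2 fold change -0.08, adjusted p = 0.515). FEN1, the flap nuclease, lies within the gene model of FADS2, a fatty acid desaturase. FEN1 alone had a log2 fold change of -0.02 (adjusted p = 0.935 in edgeR), while the sum of both models fell by 0.34 on the log2 scale (adjusted p = 0.00486 in edgeR). Mean levels in the control and STING libraries were 155.4 and 153.5 CPM for FEN1 and 302.3 and 238.0 CPM for the sum. The fall therefore lay in the counts given to FADS2. No source used here gives the strand setting of the counting, and reads of such overlapping models may be split between them. Of the other members with overlapping tested models, none gave a call when summed with them, and the log2 fold change of CCNE2 was then 0.08.

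Across the 3 nucleotide supply genes the median log2 fold change was 0.0065, with 2 estimates positive and 0 genes passing the test in edgeR. The largest estimate was that of RRM2, the regulated subunit of ribonucleotide reductase. RRM2 stood at 541.9, 517.0 and 527.7 CPM in the control and at 566.8, 581.3 and 595.3 CPM in the STING libraries. The STING libraries lay above the controls without overlap, and the log2 fold change was 0.14 (SE 0.042, adjusted p = 0.121 in edgeR). Its partner subunit RRM1 did not follow, with 158.2 to 172.6 CPM in the control, 159.6 to 171.5 CPM in the STING libraries and a log2 fold change of 0.01. The ratio of RRM2 to RRM1 counts within a library was therefore 3.23, 3.27 and 3.06 in the control and 3.55, 3.43 and 3.47 in the STING libraries, again without overlap. The limit of 0.1 on an exact p holds here too. The ratio of PCNA to RFC1 was also taken, and its groups overlapped, at 0.922 to 0.955 in the control and 0.922 to 0.993 in the STING libraries. TYMS, the thymidylate synthase, ran from 283.4 to 297.9 CPM in the control and from 277.4 to 297.8 CPM in the STING libraries, with a log2 fold change of -0.01.

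The 3 G1/S control genes had a median log2 fold change of 0.17 with all 3 estimates positive, and 1 of 3, SLBP, passed the test. SLBP (ENSG00000163950, minus strand of chromosome 4, 1692731 to 1712344) stood at 110.0, 111.0 and 105.8 CPM in the control and at 128.2, 123.9 and 121.7 CPM in the STING libraries. Its groups lay further apart than the range within either. SLBP rose 1.14-fold, with a 95% interval of 1.07 to 1.22 (log2 fold change 0.19, SE 0.046, adjusted p = 0.0481 in edgeR). The call was close to the threshold: the adjusted p was 0.0618 with haemoglobin as a term, 0.055 with upper-quartile factors and 0.102 in libraries 2 and 3 of each group, while the log2 ratio was 0.22 in replicate 1 and 0.18 over replicates 2 and 3. CCNE2, a cyclin that activates CDK2 at the G1/S boundary, had levels of 20.1, 24.2 and 25.4 CPM in the control and 24.0, 26.4 and 27.8 CPM in the STING libraries. Control library 1 was low and the groups overlapped (log2 fold change 0.17, SE 0.089, adjusted p = 0.43). E2F1, the transcription factor of this programme, stood at 48.8, 52.5 and 52.3 CPM in the control and at 56.6, 47.6 and 50.8 CPM in the STING libraries. STING library 1 was the highest and STING library 2 the lowest of all 6, and the log2 fold change was 0.01 with a 95% interval of -0.12 to 0.15.

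Levels of different genes were compared per length, in control libraries, on 2 scales. One was the deposited FPKM, whose implied gene length was 0.92 (CDT1) to 2.90 (RRM2) times that of the principal transcript, and the other was CPM per kilobase of the principal transcript. TYMS was the highest member on both scales, at 110.6 ± 3.9 FPKM (SD, n = 3), and POLE2 the lowest, at 2.83 ± 0.26 FPKM. The 6 subunits of the MCM ring, which enter it in equal numbers, differed 8.0-fold in FPKM, from MCM7 at 90.4 ± 2.4 to MCM5 at 11.3 ± 0.34, with MCM2 and MCM4 within their spread of each other. Per kilobase of the principal transcript they differed 8.70-fold, from MCM7 at 146.3 ± 3.0 to MCM6 at 16.8 ± 0.68. MCM7 and MCM3 came first on both scales, and the order of the lower 4 subunits depended on the length used. ORC6 was the highest ORC subunit and ORC4 the lowest on both scales, at 25.3 ± 0.70 and 4.01 ± 0.21 FPKM, with ORC1 and ORC3 within their spread of each other in FPKM. RPA2 lay above RPA1 and RPA1 above RPA3 on both scales. The GINS genes were the most even of these complexes, 1.24-fold apart in FPKM and 1.69-fold per kilobase, and their order, like that of the RFC genes, changed between the scales.

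**Figure D4:**
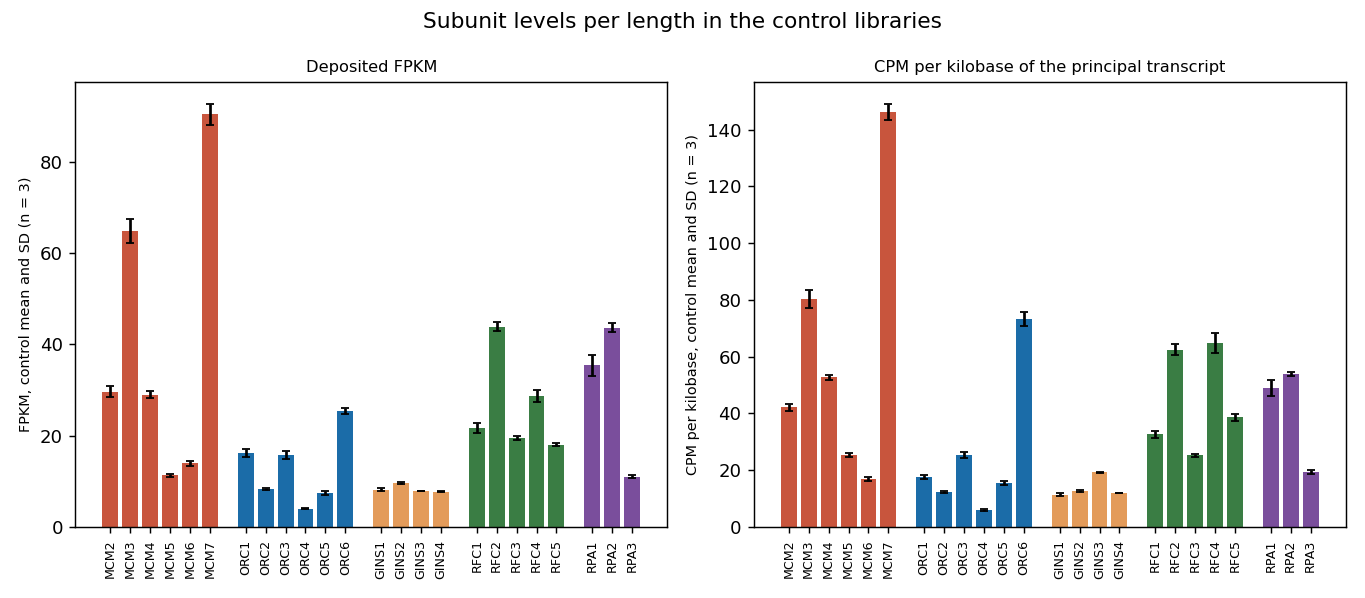
Levels per length of the subunits of 5 complexes (MCM ring, ORC, GINS, RFC and RPA) in the 3 control libraries, as bars of the mean with the SD, in deposited FPKM (left) and in CPM per kilobase of the principal transcript (right). MCM7 and MCM3 are the highest MCM subunits and ORC6 the highest ORC subunit in both panels, while MCM5 or MCM6 is the lowest MCM subunit depending on the scale.

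The other genes of the pathway were read from a list of 87: 34 of G1/S control, 30 of origin firing and the fork, 8 of chromatin assembly and 15 of nucleotide metabolism. CDKN2A, CDKN2B and CDKN2C, which encode inhibitors of CDK4 and CDK6, did not pass the filter, with 0 to 11 counts per library for CDKN2A and 0 to 4 for CDKN2B. Of the 84 tested, edgeR called 0, beside 1.49% of all genes. At an unadjusted p under 0.05 10 were higher and 5 lower, beside 7.17% and 7.2% of all genes. By DESeq2 1 was higher and 1 lower, beside 1.94% and 2.82% of all genes. By limma-voom 0 were called, beside 0.558% higher and 0.89% lower of all genes. Over the 84 genes the log2 fold changes had a median of 0.03. CHTF18, which loads the clamp in an alternative loader, was the gene that DESeq2 called higher, at 32.9, 35.4 and 35.1 CPM in the control and 38.8, 41.6 and 38.97 CPM in the STING libraries (adjusted p = 0.106 in edgeR). POLD2, a subunit of polymerase delta, was the one called lower, at 112.4, 114.0 and 120.9 CPM in the control and 110.2, 96.0 and 95.6 CPM in the STING libraries (adjusted p = 0.0977 in edgeR). E2F7, a repressing E2F factor, had a log2 fold change of 0.15 (adjusted p = 0.152), and CLSPN, which encodes the checkpoint mediator claspin, one of 0.15 (adjusted p = 0.159). CDC25A, the phosphatase that activates CDK2, and E2F6, another repressing E2F factor, had log2 fold changes of 0.19 and 0.21 (adjusted p = 0.174 and 0.177), both with overlapping groups. The chromatin genes ASF1A, HELLS and NASP had log2 fold changes of 0.10, 0.08 and 0.07. Of the nucleotide genes, DTYMK, the thymidylate kinase, had one of -0.17 (adjusted p = 0.17), with all STING libraries below all controls, CAD one of 0.08 and RRM2B one of -0.11. CDKN1A, which encodes the inhibitor p21, and CCND1, which encodes cyclin D1, had log2 fold changes of 0.01 and -0.04.

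Genes of G2 and mitosis, which follow S phase, were placed the other way. Of 38 such genes 3 fell (PLK1, CDC20 and KIF20A) and 0 rose, beside 0.89% lower and 0.604% higher of all tested genes. Estimates lay below 0 in 35 of them, where 50.2% of all genes lay above 0. The median log2 fold change of the list was -0.11. At an unadjusted p under 0.05 17 were lower and 0 higher, where 11 of the 46 replication genes were higher and 0 lower. Of all genes 7.2% were lower and 7.17% higher at that threshold. The median over the list was -0.15, -0.08 and -0.09 in STING libraries 1, 2 and 3, and that over the 46 members was 0.07, 0.05 and 0.05 in the same libraries, each relative to the control mean. CDC25C stands in both this list and that of origin firing and the fork, with a log2 fold change of -0.13. The difference between the lists was not tested. DESeq2 called 12 G2/M genes lower, and 2.82% of all genes. In libraries 2 and 3 of each group alone 1 was called, with 0.968% of all genes called in either direction. Calls were 6 without STING library 1, where 3.27% of all genes were called, and 0 without any other single library.

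**Figure D5:**
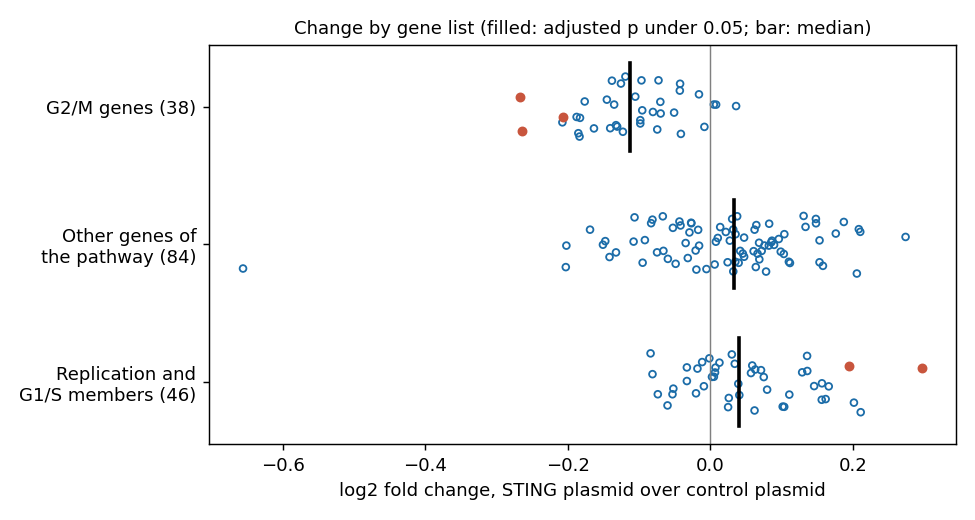
Log2 fold change of each tested gene, STING plasmid over control plasmid, for the 46 replication and G1/S genes, the 84 other genes of the pathway and 38 G2/M genes, with the median of each list as a bar (0.04, 0.03 and -0.11). Filled points have an adjusted p under 0.05, which 2, 0 and 3 genes of the lists had.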

How the data were processed

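Per the labels' protocols, RNA was taken with Trizol and made into Illumina TruSeq libraries. Bowtie 0.12.2 is named in the submitters' processing notes, and no source used here gives the counting program, annotation, build or strand setting. The deposited tables hold the authors' whole-number counts and FPKM per gene; of their identifiers 40903 were in GENCODE v29, and 89.8% of those had their start or end at most 1 base away, so coordinates were taken as GRCh38. All rows named a gene.

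The main test was the robust quasi-likelihood test of edgeR 4.0.16 under R 4.3.3, two-sided, on genes kept by filterByExpr, with TMM factors, Benjamini-Hochberg adjustment and a threshold of 0.05. Both groups of 3 libraries entered without a covariate. CPM values use TMM-scaled library sizes, and 3 counts were 0.0392 to 0.042 CPM, a floor for counting error only. Standard errors and intervals derive from the test's F value and are approximate. Alternatives used DESeq2 1.42.0 and limma 3.58.1. Chi-square per gene was 11.7 to 23.0 between replicates, so none agreed within sampling noise. The scripts were tested on simulated data. Members, role classes and lists were chosen with earlier results of these data known, so p-values are adjusted over all tested genes and lists are described by counts and medians. The rule named STING1, each called gene, the 3 lowest unadjusted p of each class or list, and the highest and lowest FPKM of each class. Other named genes were chosen after their values were seen.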

Additional observations from a re-analysis of the deposited data

How the results depend on the processing

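All values here are counts of calls or log2 fold changes of the STING over the control plasmid. Of the 24 named members, 16 to 23 kept their direction and their side of the threshold under each alternative. Genes called higher and lower numbered 131 and 193. DESeq2 gave 420 and 612, the stricter filter 274 and 412, library totals 246 higher, the GC and length correction 304 lower, and libraries 2 and 3 of each group 57 higher. Members called higher were 2, but 7 in DESeq2, 1 with upper-quartile factors, 1 with the haemoglobin term and 0 in libraries 2 and 3. Of all genes 1.49% were called in either direction, and 4.76%, 1.68%, 1.17% and 0.968% in these alternatives. When overlapping models were summed, the sum of FEN1 and FADS2 was called lower, which FEN1 alone was not. Of the related genes, 1 was higher and 1 lower in DESeq2 and after the GC and length correction, and 1 was lower in libraries 2 and 3 and with the stricter filter. G2/M genes called lower were 3, but 12 in DESeq2, 13 after the GC and length correction, 5 with no filter, 8 with the stricter filter and 1 in libraries 2 and 3. The cause of these differences was not tested.

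With library totals the median was 0.071 over the members, 0.13 over licensing, 0.091 over polymerase and 0.037 over nucleotide genes. The median over all tested genes was then 0.031, so part of these shifts was shared by all genes. FEN1 (0.012) and TYMS (0.019) turned positive. In libraries 2 and 3 alone the licensing median was 0.13 and the nucleotide median 0.044, and ORC4 (-0.0012), POLE2 (-0.13) and E2F1 (-0.091) turned negative. After the GC and length correction the polymerase median was 0.023 and the G1/S median 0.11. ORC4 (-0.016), MCM10 (-0.011), POLE2 (-0.042) and RRM1 (-0.040) turned negative there, and MCM7 (0.019) and FEN1 (0.0074) positive. POLE2 turned negative in DESeq2 (-0.00093), with RLE factors (-0.00089), in limma-voom (-0.0011) and with upper-quartile factors (-0.0079), as did RRM1 with the last (-0.0032). With overlapping models summed the G1/S median was 0.085 and RPA3 turned to 0.00011.

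The groups share replicate numbers, but same-numbered libraries correlated in their deviations at 0.12, 0.01 and 0.0078, so the numbers were not taken to pair them, and not every library correlated best with its own number. With the replicate number as a block 55 genes were higher and 65 lower, or 0.554% of all genes, and 0 members and 0 G2/M genes passed. At an unadjusted p under 0.05 in that fit 10 members were higher and 0 lower, beside 5.94% and 6.28% of all genes. The log2 fold change of ORC5 was then 0.30 and that of SLBP 0.19. With the block and the GC and length correction, an alternative chosen after seeing the data like the 2 on haemoglobin, 44 genes were higher and 64 lower, 0 members and 1 G2/M gene passed, and the polymerase median was 0.024 and the G1/S median 0.12. ORC4 (-0.016), MCM10 (-0.010), POLE2 (-0.045) and RRM1 (-0.039) were then negative and MCM7 (0.019) and FEN1 (0.0068) positive.

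Leaving out 1 library at a time gave 34 to 260 genes higher and 26 to 481 lower, 0 to 4 members higher, 0 to 2 related genes higher and 0 to 4 lower, and 0 to 6 G2/M genes lower, each highest without STING library 1. The nucleotide median ran from -0.028 to 0.038 and the G1/S median from 0.072 to 0.20. Estimates of 14 of the 46 members crossed 0. Among the named members these were ORC4 (-0.0076 to 0.067), MCM10 (-0.0090 to 0.065), POLE2 (-0.070 to 0.096), FEN1 (-0.066 to 0.031), TYMS (-0.033 to 0.018), RRM1 (-0.028 to 0.038) and E2F1 (-0.058 to 0.068). Without a library, ORC5 ran from 0.26 to 0.33 (adjusted p 0.0312 to 0.18 in edgeR) and SLBP from 0.17 to 0.21 (adjusted p 0.0468 to 0.223). With 3 libraries a group, the 95% interval of CCNE2 reaches 1.28-fold, the upper limit that these libraries set for this low gene.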
